A study of Sus scrofa with 32 samples.

Results

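Molecular chaperones bind unfolded proteins and help them fold, move or be degraded. HSP70 proteins do so in cycles of ATP use that J-domain proteins (the DNAJ families) start and exchange factors reset. HSP90 takes over later folding steps, and the barrel-shaped chaperonins enclose a whole protein, TRiC (the CCT subunits and TCP1) in the cytosol and HSP60 with its lid HSP10 in mitochondria. The fetal liver makes blood cells while its hepatocytes become secretory cells that export plasma proteins through the endoplasmic reticulum (ER), where a separate set of chaperones works.

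The chaperone genes described here carry symbols that begin with HSPA, HSPB, HSPD, HSPE, HSPH, HSP90, DNAJ or CCT followed by a digit, or are TCP1. Each gene is read by its probe set with the highest mean over all arrays, among probe sets annotated to exactly 1 symbol. This gave 51 genes of 6765 genes named on the array, from 81 probe sets, and 19 of the genes had more than 1 probe set. HSPBP1, an exchange factor that acts on HSP70, and HSPB11, a protein of ciliary transport, are included by name although neither is a small heat shock protein. No probe set used here carried HSPA1A, HSPA1B, HSPA1L, CCT3 or CCT5 as its only symbol.

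The study measured liver RNA of Pietrain pig fetuses on 32 expression arrays, 1 per sample, to ask how a gestation diet rich in methylating micronutrients affects the liver transcriptome. The groups were a control diet and a methyl-enriched diet at each of 35, 63 and 91 dpc (days post conception), with 5 arrays of each diet at 35 dpc, 6 of each at 63 dpc and 5 of each at 91 dpc. The offspring came from 5 to 6 gilts per stage, and the labels do not say which fetuses shared a dam. The p-values therefore treat the arrays as independent samples, and the number of arrays limits their precision. If fetuses shared a dam, fewer independent samples lie behind the tests, and the p-values and standard errors may be too small. A probe set's values are log2 signals, and they are compared between arrays for the same gene, not between genes.

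The arrays fell into 18 with a wide and 14 with a narrow gap between 2 spike-in controls, called high-gap and low-gap arrays below, with both kinds in every group. The log2 ratio of 3' to 5' signal, averaged over 3 control genes, was 1.90 ± 0.28 (SD) in the high-gap and 1.40 ± 0.17 in the low-gap arrays. By age the same log2 ratio was 1.69 ± 0.26 at 35 dpc, 1.54 ± 0.28 at 63 dpc and 1.84 ± 0.42 at 91 dpc. Marker genes showed hepatocytes at every age, with a mean over 18 genes of 13.9 at 35 dpc, 14.5 at 63 dpc and 14.8 at 91 dpc. The mean of 13 erythroid genes went from 11.5 (range over arrays 11.1 to 11.8) at 35 dpc to 10.9 (10.7 to 11.3) at 63 dpc and 9.27 (8.70 to 9.87) at 91 dpc. The 18 cell cycle genes went from 9.83 to 9.16 and 7.63, and the 9 macrophage genes tested from 7.36 to 7.56 and 8.48. In bulk liver, fewer cells of a type and less RNA per cell cannot be told apart.

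Between 35 and 63 dpc, 21 of the 48 chaperone genes tested rose (43.8%), 15 fell (31.2%) and 12 were not called. A call is an adjusted p under 0.05 by limma, with Benjamini-Hochberg adjustment over all 15327 probe sets kept, and the age comparisons average the 2 diets. Over all probe sets 32.5% were called higher and 28% lower in that interval. Between 63 and 91 dpc, 14 chaperone genes rose (29.2%), 16 fell (33.3%) and 18 were not called, against 29.5% higher and 29% lower over all probe sets. The median log2 difference of the chaperone genes was 0.17 in the first interval and 0.0055 in the second, beside 0.046 and -0.034 over all probe sets. Counted instead over 5594 named genes with 1 probe set each, 31.1% rose and 39.2% fell in the first interval, and 22.9% rose and 40.5% fell in the second. These shares per gene are the nearest background for the chaperone genes, also read by 1 probe set each, and for the lists of other named genes given below.

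From 35 to 91 dpc, 23 genes rose and 16 fell (47.9% and 33.3%), with 40.8% and 39.1% of all probe sets called in those directions. Over named genes with 1 probe set each, 33.6% rose and 50.2% fell. Of the 48, 11 rose in both intervals, 11 fell in both, and 6 were called in neither. The share of all probe sets called in both intervals was not counted, so these counts have no background beside them. All genes called in either interval had the same direction in the control arrays and in the methyl arrays taken alone, and in the high-gap and the low-gap arrays taken alone. Among the 41 genes followed through the alternatives, in the 14 low-gap arrays alone, the calls of DNAJC2, HSP90B1, HSPA13, HSPA4, HSPD1, HSPH1, CCT6A, CCT8, DNAJB1, DNAJB11 and HSPB6 in the first interval were lost, with adjusted p of 0.055 to 0.40. So were those of DNAJB4, HSPA5, HSPA12A, HSPB6, CCT2 and CCT4 in the second, with adjusted p of 0.051 to 0.23. In the second interval the shares of rising and falling genes (29.2% and 33.3%) lay close to those over all probe sets (29.5% and 29%). Over named genes with 1 probe set each, the shares were 22.9% and 40.5%. Single chaperone genes moved far in both directions.

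**Figure D1:**
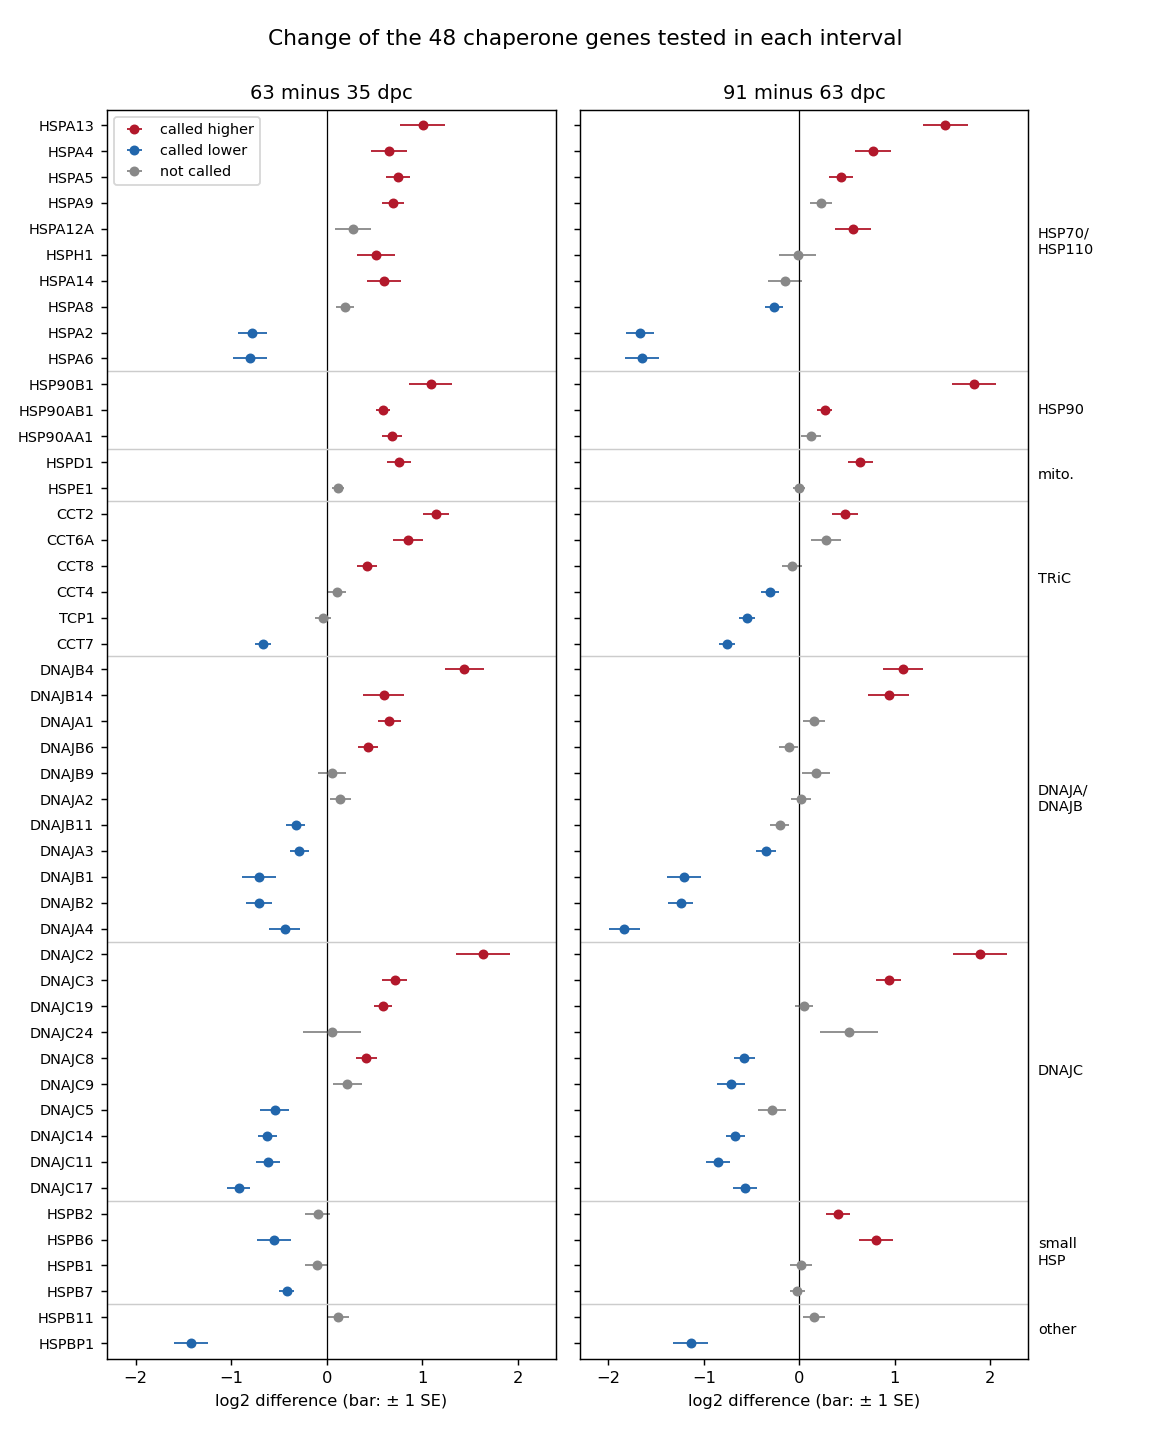
Log2 difference of each of the 48 tested chaperone genes (rows, grouped by family) between 35 and 63 dpc (left) and between 63 and 91 dpc (right); points are limma estimates averaged over diets, bars are ± 1 SE and colours mark the call. The 3 HSP90 genes all lie to the right in the first interval, and DNAJC2 and HSP90B1 stand farthest to the right in the second.

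Of the 8 tested chaperone genes of the ER, 5 rose and 2 fell in the first interval, and 5 rose and 1 fell in the second. Among all named genes 31.1% rose and 39.2% fell in the first interval, and 22.9% rose and 40.5% fell in the second. The median differences of the 8 genes were 0.65 and 0.69. They were 0.046 and -0.034 over all probe sets, and -0.086 and -0.14 over all named genes. HSP90B1 (GRP94), the HSP90 of the ER, had lowest, median and highest values of 8.68, 9.58 and 10.6 at 35 dpc. They were 9.51, 10.9 and 11.5 at 63 dpc, and 11.99, 12.6 and 12.9 at 91 dpc. Every array at 91 dpc lay above every array at 63 dpc. HSP90B1 rose by 1.09 ± 0.23 (log2, SE, n = 10 and 12 arrays; adjusted p = 0.00016) and then by 1.83 ± 0.23 (n = 12 and 10; adjusted p = 8.0e-08), 7.54-fold over the whole period. Its second probe set rose by 1.26 and 1.22.

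HSPA5 (BiP) is the HSP70 of the ER lumen. Its lowest, median and highest values were 11.1, 11.8 and 12.3 at 35 dpc, while at 63 dpc they read 11.9, 12.5 and 12.7, and at 91 dpc 12.5, 12.8 and 13.2. It rose by 0.75 ± 0.12 and by 0.44 ± 0.12 (adjusted p = 7.6e-06 and 0.0033), and the arrays at 35 and 91 dpc did not overlap. HSPA13, a short HSP70 relative of the ER, had medians of 6.53, 7.84 and 9.24 at the 3 ages. It rose by 1.01 ± 0.24 and 1.53 ± 0.24, and all arrays at 91 dpc lay above all at 63 dpc. DNAJC3 (P58IPK), an ER partner of BiP, had medians of 5.90, 6.58 and 7.46 and rose by 0.71 ± 0.13 and 0.93 ± 0.13.

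The other J-domain proteins of the ER were divided. DNAJB11 (ERdj3), an abundant BiP partner in the lumen, had medians of 8.44, 8.12 and 7.91, fell by 0.33 ± 0.10 in the first interval (adjusted p = 0.0069) and was not called in the second (-0.21 ± 0.10, adjusted p = 0.081). The fall was not called in the high-gap arrays alone (-0.36, adjusted p = 0.064) or the low-gap arrays alone (-0.31, adjusted p = 0.13). The difference in the second interval became a call with quantile normalization (-0.26) and when control replicate 3 or 6 or methyl replicate 4 of 63 dpc was left out. DNAJC14, an ER membrane J protein, fell in both intervals, by 0.62 ± 0.10 and 0.67 ± 0.10. DNAJB9 (ERdj4), a target of the unfolded protein response, read 0.056 ± 0.15 and 0.17 ± 0.15 and was not called. One of its dimmer probe sets was called higher in both intervals, and the mean of its 3 probe sets rose by 0.40 in the second (adjusted p = 0.0023). DNAJB14, which sits in the ER membrane, rose by 0.60 ± 0.21 and 0.94 ± 0.21.

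Of 17 other measured genes of ER folding and the unfolded protein response, 1 rose and 8 fell in the first interval, and 3 rose and 7 fell in the second. The counts that fell lie near the 39.2% and 40.5% of all named genes that did. Over all named genes 31.1% rose in the first interval and 22.9% in the second. The median differences were -0.17 and -0.087, beside -0.086 and -0.14 over all named genes. The riser in both intervals was CANX (calnexin), a membrane lectin chaperone, with 1.08 ± 0.16 and 0.92 ± 0.16. HYOU1, the exchange factor of BiP, fell by 0.91 ± 0.14 and 0.45 ± 0.14. SDF2L1, a lumenal partner of DNAJB11, fell by 1.75 ± 0.17 and 0.74 ± 0.17, and CRELD2, an ER protein induced by folding stress, by 1.17 ± 0.13 and 0.42 ± 0.13. DDIT3 (CHOP), a transcription factor of the same response, read 0.21 ± 0.17 and 0.087 ± 0.17 and was not called. BiP and GRP94 rose in both intervals, in which HYOU1, SDF2L1 and CRELD2 fell. Of the 17 genes, PDIA4 and ERO1A rose in the second interval, by 0.32 ± 0.090 and 0.62 ± 0.21. PDIA3, ERP44 and ATF4 were called in neither interval.

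**Figure D2:**
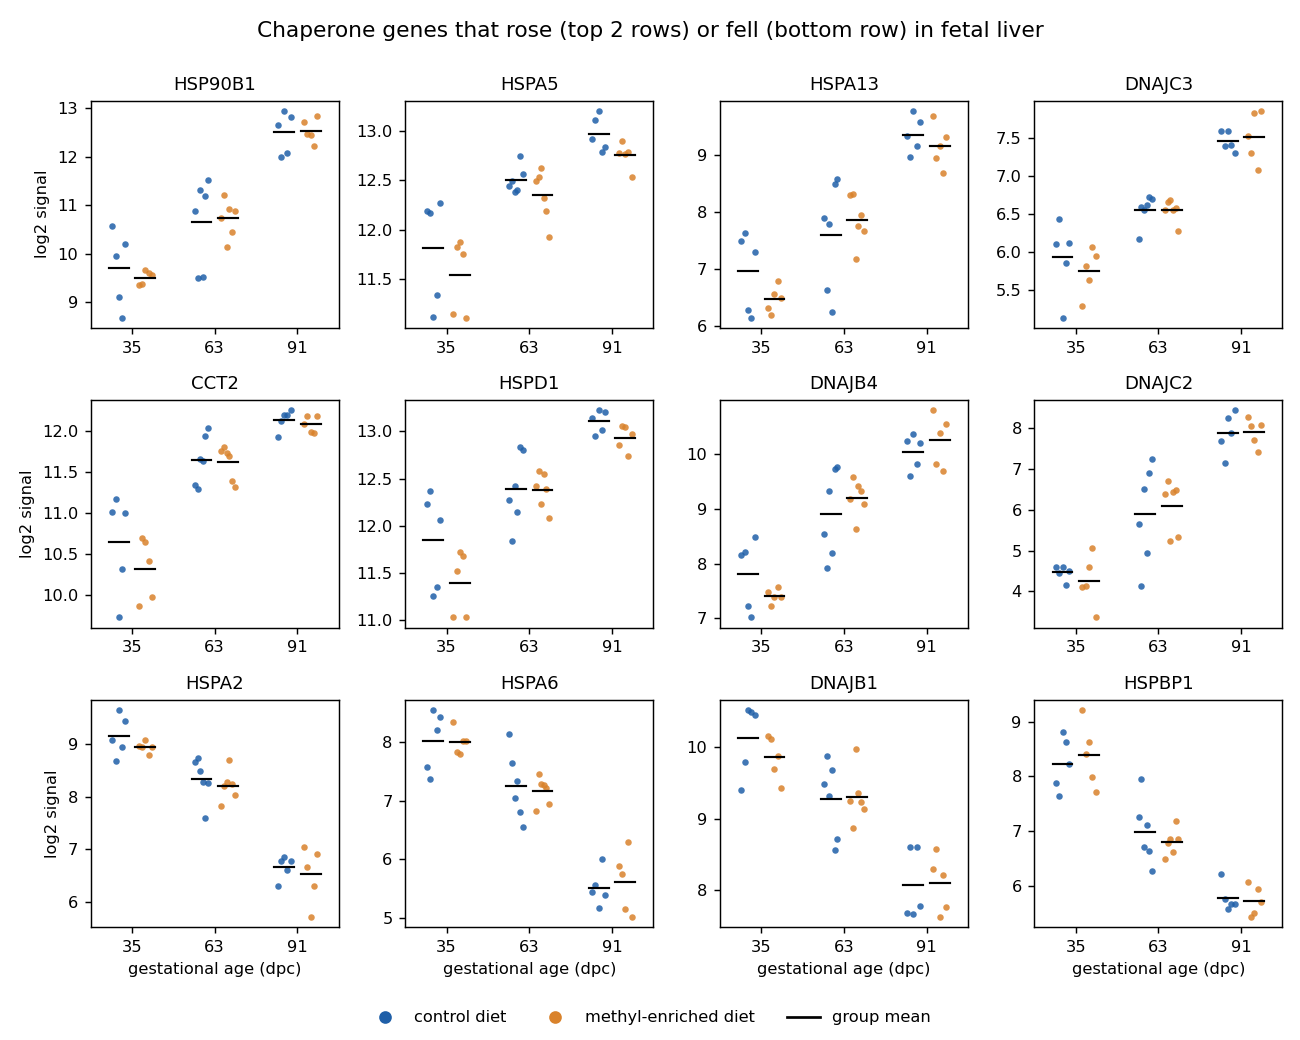
Log2 signal of 12 chaperone genes in each of the 32 arrays at 35, 63 and 91 dpc (x axis, gestational age in dpc), with points coloured by diet and black bars at the group means. The 8 genes in the top 2 rows, HSP90B1 among them, rose in both intervals, and the 4 in the bottom row (HSPA2, HSPA6, DNAJB1, HSPBP1) fell in both.

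In the cytosol the HSP70 family split. HSPA8 (HSC70) is the constitutive HSP70 of most cells. Its lowest, median and highest values were 12.8, 13.3 and 13.8 at 35 dpc, while at 63 dpc they read 12.9, 13.6 and 13.9, and at 91 dpc 13.0, 13.3 and 13.5, so the ages overlapped widely. It was not called in the first interval (0.20 ± 0.093, adjusted p = 0.069) and fell by 0.27 ± 0.093 in the second (adjusted p = 0.015). The second difference turned positive, at 0.055 (adjusted p = 0.60), in the mean of its 4 probe sets, and it was not called in the high-gap arrays alone (-0.16, adjusted p = 0.32). The first became a call when control replicate 5 or methyl replicate 2 of 35 dpc, or methyl replicate 5 or 6 of 63 dpc, was left out.

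HSPA2, an HSP70 best known from the testis, had medians of 8.95, 8.26 and 6.72. It fell by 0.78 ± 0.15 and 1.67 ± 0.15 (adjusted p = 4.8e-05 and 1.3e-10), 5.44-fold over the period. HSPA6, a heat-inducible HSP70 in human cells, had medians of 8.02, 7.24 and 5.50. It fell by 0.80 ± 0.18 and 1.65 ± 0.18, and every array at 91 dpc lay below every array at 63 dpc for both genes. Whether probe sets of HSP70 genes also bind transcripts of their close relatives was not tested. HSPA12A, a distant relative, was above the background level (the 40th percentile of its array) in none of the 10 arrays at 35 dpc, 3 of 12 at 63 dpc and 8 of 10 at 91 dpc. It was called higher in the second interval (0.56 ± 0.19), a difference between mostly background values to which no fold is given.

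HSPA4 and HSPH1 are exchange factors of the HSP110 class in the cytosol. HSPA4 (Apg-2) had medians of 7.67, 8.70 and 9.32 and rose by 0.65 ± 0.19 and 0.77 ± 0.19. HSPH1 (HSP105), which is heat inducible, rose by 0.52 ± 0.20 (adjusted p = 0.024) and then read -0.018 ± 0.20. Its first rise was no longer called without control replicate 3 or 4 of 35 dpc or control replicate 5 of 63 dpc, with adjusted p up to 0.055, nor with array weights (0.40, adjusted p = 0.061). HSPBP1, an exchange factor of another class, fell by 1.42 ± 0.18 and 1.14 ± 0.18. Its medians were 8.32, 6.82 and 5.69, the arrays at 91 dpc lay below all arrays at 63 dpc, and the total fall was 5.89-fold, the largest among the 48 tested genes.

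DNAJB1 (HSP40), the main J-domain partner of inducible HSP70, ranged over 9.40 to 10.5, then 8.57 to 9.98 and then 7.63 to 8.61 at the 3 ages. It fell by 0.71 ± 0.18 and 1.21 ± 0.18 (adjusted p = 0.0013 and 1.6e-06). DNAJB2, which also binds ubiquitin, fell by 0.71 ± 0.14 and 1.24 ± 0.14. DNAJA4, a class A J protein, fell by 0.44 ± 0.16 and 1.84 ± 0.16, and was above background in 10 of 10, 12 of 12 and 6 of 10 arrays at the 3 ages. DNAJB4, close in sequence to DNAJB1, went the other way. Its medians were 7.44, 9.25 and 10.2, and it rose by 1.44 ± 0.21 and 1.09 ± 0.21, 5.77-fold over the period. DNAJA1, a class A partner of HSC70, rose by 0.66 ± 0.12 and was not called in the second interval (0.16 ± 0.12), in which the mean of its probe sets rose by 0.53. DNAJB6, which keeps proteins from aggregating, rose by 0.43 ± 0.10 while a dimmer probe set of the same gene fell by 0.53 ± 0.18. DNAJA2 was not called in either interval.

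The falling genes HSPA2, HSPA6, DNAJB1, DNAJB2, DNAJA4 and HSPBP1 were measured in the same arrays in which 9 of the 13 erythroid genes fell in the first interval and 11 in the second. One erythroid gene, HBB, rose in both. Over the period the 18 hepatocyte genes had 10 called higher and 4 lower, and the 18 cell cycle genes 1 higher and 16 lower. The part of these markers in the chaperone results, rising or falling, was not tested.

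The cytosolic HSP90s rose in the first interval. HSP90AA1, the inducible form, had lowest, median and highest values of 11.6, 12.2 and 12.8 at 35 dpc. They were 12.5, 12.8 and 13.2 at 63 dpc, a rise of 0.68 ± 0.11 (adjusted p = 2.5e-06). It was not called in the second interval (0.12 ± 0.11). Its second brightest probe set, with a mean of 11.5, fell by 0.39 ± 0.11 and 0.77 ± 0.11, while the other 3 of its 5 probe sets rose in the first interval. HSP90AB1, the constitutive form, rose by 0.59 ± 0.075 and 0.27 ± 0.075, with every array at 63 dpc above every array at 35 dpc. Its second rise was not called in the high-gap arrays alone (0.21, adjusted p = 0.11).

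Of 16 measured cytosolic co-chaperones of HSP70 and HSP90, 3 rose and 11 fell in the first interval and 2 rose and 11 fell in the second. Over all named genes 31.1% rose and 39.2% fell, and then 22.9% rose and 40.5% fell. The medians of the co-chaperones were -0.44 and -0.38, beside -0.086 and -0.14 over all named genes. STIP1 (HOP), which links HSP70 to HSP90, fell by 0.62 ± 0.11 and 0.97 ± 0.11, and FKBP4, an HSP90 immunophilin, by 0.83 ± 0.10 and 0.78 ± 0.10. ST13 (HIP), which stabilises the substrate-bound state of HSP70, rose by 1.31 ± 0.10 and 0.41 ± 0.10. Of 4 measured genes of the heat shock factor list, HSF1, the main activator of the heat shock response, fell by 0.77 ± 0.14 and 0.38 ± 0.14, and HSF2 rose by 1.03 ± 0.17 and 0.52 ± 0.17. Both other genes of that list, HSBP1 and HSF2BP, fell in the first interval, and HSBP1 fell in the second as well. Among the heat-inducible genes, HSPA6 and DNAJB1 fell, HSPH1 and HSP90AA1 rose between 35 and 63 dpc, and HSPB1 was not called.

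The 6 measured subunits of TRiC, which assemble in equal numbers into 1 complex, had transcripts that moved apart. CCT2 had lowest, median and highest values of 9.73, 10.5 and 11.2 at 35 dpc. They were 11.3, 11.7 and 12.04 at 63 dpc, and 11.9, 12.2 and 12.3 at 91 dpc. It rose by 1.15 ± 0.14 and 0.48 ± 0.14 (adjusted p = 3.9e-08 and 0.0034), with no overlap between 35 and 63 dpc. The second rise was not called in the high-gap (0.46, adjusted p = 0.075) or the low-gap arrays alone (0.49, adjusted p = 0.051). CCT7 had lowest, median and highest values of 12.2, 12.4 and 12.9 at 35 dpc, while at 63 dpc they read 11.3, 11.8 and 12.1, and at 91 dpc 10.7, 11.04 and 11.2. It fell by 0.66 ± 0.087 and 0.76 ± 0.087 (adjusted p = 2.1e-07 and 1.7e-08), and neighbouring ages did not overlap.

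The other subunits lay between these. CCT6A rose by 0.85 ± 0.16 and then read 0.28 ± 0.16 (adjusted p = 0.13, but called at 0.28 with only the ages compared in the fit and at 0.30 with array weights). In the second interval a dimmer probe set of CCT6A was called higher (0.51 ± 0.16) and another lower (-0.84 ± 0.35). CCT8 rose by 0.42 ± 0.10 and then read -0.078 ± 0.10. CCT4 was not called in the first interval (0.11 ± 0.094) and fell by 0.31 ± 0.094 in the second. TCP1 read -0.035 ± 0.085 in the first interval, also not called, and fell by 0.55 ± 0.085 in the second. Over the whole period CCT2 was 3.08-fold higher and CCT7 2.68-fold lower, and the 95% intervals of their log2 differences were 1.34 to 1.91 and -1.61 to -1.24. Prefoldin, which hands unfolded actin and tubulin to TRiC, had 2 of 6 measured genes of its list higher and 3 lower in the first interval, and 1 higher and 3 lower in the second. With 31.1% and then 22.9% of all named genes higher, and 39.2% and 40.5% lower, these counts lie near the background. VBP1 rose by 0.71 ± 0.13 and 0.48 ± 0.13, and PFDN1 fell by 0.52 ± 0.10 and 0.70 ± 0.10.

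**Figure D3:**
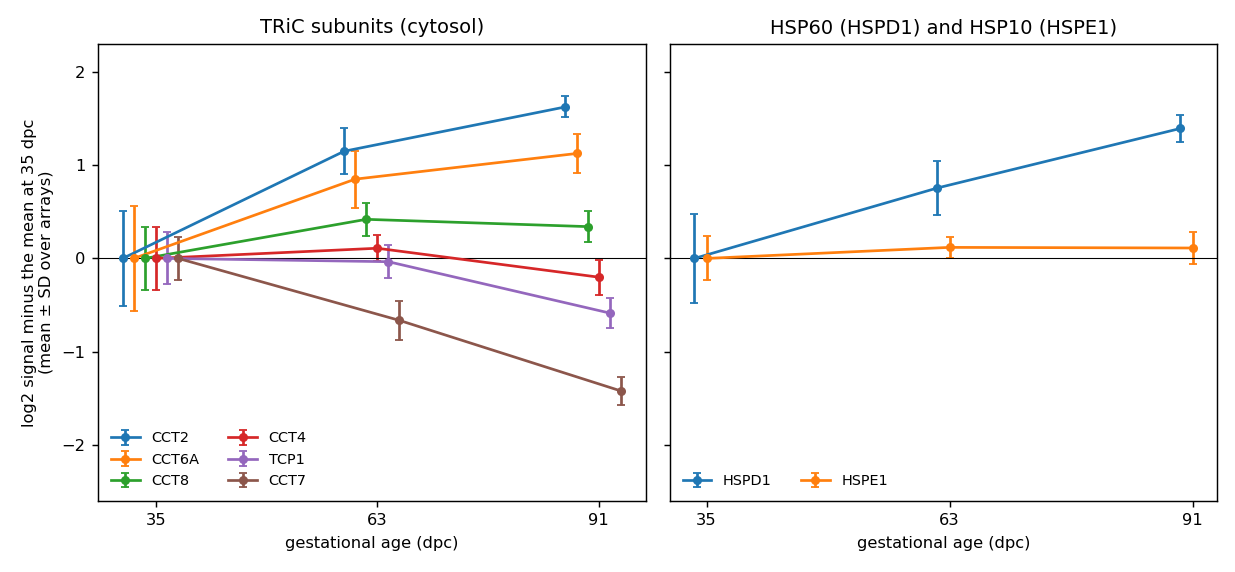
Log2 signal minus the gene's mean at 35 dpc (mean ± SD over 10, 12 and 10 arrays) against gestational age in dpc for the 6 TRiC subunits (left) and for HSPD1 and HSPE1 (right). CCT2 and CCT6A end above 1, CCT7 ends below -1, and HSPE1 stays near 0 while HSPD1 rises.

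The mitochondrial chaperonin pair also parted. HSPD1 (HSP60), the barrel, had lowest, median and highest values of 11.03, 11.6 and 12.4 at 35 dpc, while at 63 dpc they read 11.8, 12.4 and 12.8, and at 91 dpc 12.7, 13.0 and 13.2. It rose by 0.76 ± 0.13 and 0.64 ± 0.13 (adjusted p = 1.0e-05 and 9.5e-05), and the arrays at 35 and 91 dpc did not overlap. HSPE1 (HSP10), its lid, had medians of 14.2, 14.3 and 14.3 and differences of 0.12 ± 0.064 and -0.0067 ± 0.064. The first was not called (adjusted p = 0.11), but was without methyl replicate 3 of 35 dpc or methyl replicate 6 of 63 dpc. This first difference was called in the methyl arrays alone (0.26, adjusted p = 0.016). In the control arrays alone it read -0.025 (adjusted p = 0.85). From 35 to 91 dpc the 95% interval was 1.12 to 1.67 for HSPD1 and -0.024 to 0.25 for HSPE1. In the RefSeq annotation of the pig assembly Sscrofa11.1, no protein-coding gene lies between HSPD1 and HSPE1.

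HSPA9 (mortalin), the HSP70 of the mitochondrial matrix, rose by 0.69 ± 0.12 and then read 0.23 ± 0.12 (adjusted p = 0.089), which was called with array weights (0.24, adjusted p = 0.028). DNAJC19, a J protein of the import motor, rose by 0.59 ± 0.095. DNAJA3 (TID1), the matrix J protein, fell by 0.29 ± 0.10 and 0.35 ± 0.10, and DNAJC11, a protein of the cristae, by 0.61 ± 0.12 and 0.85 ± 0.12. Of 7 other measured genes of mitochondrial import and quality control, 1 rose and 5 fell in the first interval and 1 rose and 6 fell in the second, where 39.2% and 40.5% of all named genes fell. GRPEL1, the exchange factor of mortalin, fell by 0.59 ± 0.10 and 0.42 ± 0.10, TRAP1, the mitochondrial HSP90, by 0.44 ± 0.12 and 0.42 ± 0.12, and TIMM50, an import receptor, by 1.26 ± 0.17 and 1.40 ± 0.17. YME1L1, an inner membrane protease, was the riser, with 1.13 ± 0.20 and 1.07 ± 0.20.

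Among the DNAJC proteins, DNAJC2 (zuotin, MPP11) had the largest difference of the 51 genes. This J protein acts at the ribosome with HSPA14. Its lowest, median and highest values were 3.37, 4.49 and 5.07 at 35 dpc, while at 63 dpc they read 4.13, 6.41 and 7.25, and at 91 dpc 7.14, 7.96 and 8.43. It rose by 1.63 ± 0.28 and 1.89 ± 0.28 (adjusted p = 1.3e-05 and 1.5e-06), 11.5-fold over the period. HSPA14 rose by 0.60 ± 0.18 and then read -0.15 ± 0.18 (adjusted p = 0.49).

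DNAJC8, a spliceosome component, rose by 0.41 ± 0.11 and then fell by 0.58 ± 0.11. DNAJC17, which also acts in splicing, fell by 0.92 ± 0.12 and 0.57 ± 0.12. DNAJC9, a histone chaperone, was not called in the first interval and fell by 0.72 ± 0.15 in the second. DNAJC5 (cysteine string protein), a vesicle protein, fell by 0.54 ± 0.15 in the first interval and read -0.28 ± 0.15 (adjusted p = 0.10) in the second. DNAJC24, needed to make diphthamide, had an SD of 0.73, 0.72 and 0.69 within the 3 ages and was not called.

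The small heat shock proteins, which hold unfolded proteins without using ATP, had 4 tested genes of 6. HSPB1 (HSP27) had medians of 9.27, 9.18 and 9.20 and differences of -0.11 ± 0.12 and 0.018 ± 0.12. HSPB6 (HSP20), of smooth and heart muscle, fell by 0.55 ± 0.18 and then rose by 0.81 ± 0.18, with medians of 5.25, 4.77 and 5.47. Neither difference was called in the low-gap arrays alone (-0.38 and 0.37, adjusted p = 0.21 and 0.23), and the second was 1.09 in the high-gap arrays. In control arrays the second was 1.13 in the high-gap and 0.056 in the low-gap arrays. HSPB2 had a median of 3.76 at both 35 and 63 dpc and was called higher in the second interval (0.40 ± 0.13, adjusted p = 0.0079). At 91 dpc replicate 2 of each diet, both low-gap arrays, read 4.91 and 4.97, and the other 8 arrays 3.76 to 4.04. The difference was 0.21 in the high-gap and 0.72 in the low-gap arrays, and it was not called in the control arrays alone (0.35, adjusted p = 0.11). HSPB7 was above background in 7 of 10, 1 of 12 and 1 of 10 arrays and was called lower in the first interval (-0.42 ± 0.083), again without a fold. HSPB3, HSPB8 and DNAJC6 (auxilin) were not above background in enough arrays to be tested. The mean of the 9 muscle genes tested, of 13 measured, went from 5.88 (range 5.24 to 6.67) to 5.54 (5.22 to 6.02) and 5.11 (4.86 to 5.66), and the part of other cell types in these values was not tested. HSPB11 read 0.12 ± 0.11 and 0.15 ± 0.11 and was called in neither interval.

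Several of the strongest risers varied widely between arrays of 63 dpc. DNAJC2 had an SD of 0.93 there, HSPA13 of 0.72, HSP90B1 of 0.67 and DNAJB4 of 0.60. Control replicates 2 and 4 held the lowest pair of values for each of these genes, at 4.13 and 4.93 for DNAJC2, 6.63 and 6.25 for HSPA13, 9.51 and 9.52 for HSP90B1 and 7.93 and 8.20 for DNAJB4. The same arrays read high for a falling gene, with 9.88 and 9.69 for DNAJB1 against a median of 9.28. Both are low-gap arrays. On the first principal component of all kept probe sets, the main axis between arrays, they read -54.6 and -32.5, lowest of that age. Control replicate 5, the remaining low-gap control array of 63 dpc, read 6.91 for DNAJC2, 8.50 for HSPA13, 11.2 for HSP90B1 and 9.73 for DNAJB4. The part of the gap, or of this axis over all kept probe sets, in these values was not tested. Leaving out control replicate 2 or 4 moved no count of calls by 1.5 times.

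Within groups, the HSP90AA1 and HSPH1 values varied together from array to array. Over the 32 arrays, after removing the 6 group means, Pearson's r was 0.62 (permutation p = 0.00028, adjusted over 5 pairs 0.0014) and Spearman's rho 0.65 (p = 0.00054, adjusted 0.0027). Without the 2 arrays farthest from the median of HSP90AA1, r was 0.54 (adjusted p = 0.011), and it was 0.58 in the 18 high-gap and 0.81 in the 14 low-gap arrays. Averaging each gene's probe sets gave an r of 0.35 (adjusted p = 0.093). Arrays of the same group also differed over all kept probe sets, and the part of that in these correlations was not tested. Gene pairs outside the 5 were not counted, so whether the correlation is particular to HSP90AA1 and HSPH1 cannot be told.

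For HSPD1 and HSPE1, r was 0.41 and rho 0.41 (adjusted p = 0.068 and 0.063), with r of 0.64 in the high-gap and -0.054 in the low-gap arrays and 0.55 without the 2 farthest arrays. HSPA5 and HSP90B1 gave r = 0.38 and rho = 0.35 (both adjusted p = 0.090), 0.73 and 0.63 within the high-gap and low-gap arrays, and 0.055 without the 2 farthest arrays. TCP1 and CCT2 gave r = 0.43 (rho 0.43, adjusted p = 0.090 and 0.063), 0.54 and 0.28 within the sets and 0.27 without the 2 farthest. For DNAJB1 and HSPH1, r was -0.25 (rho -0.26, adjusted p = 0.23 and 0.21), with 0.21 in the high-gap and -0.85 in the low-gap arrays and -0.17 without the 2 farthest. All p here are two-sided from 100000 permutations of arrays within groups.

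**Figure D4:**
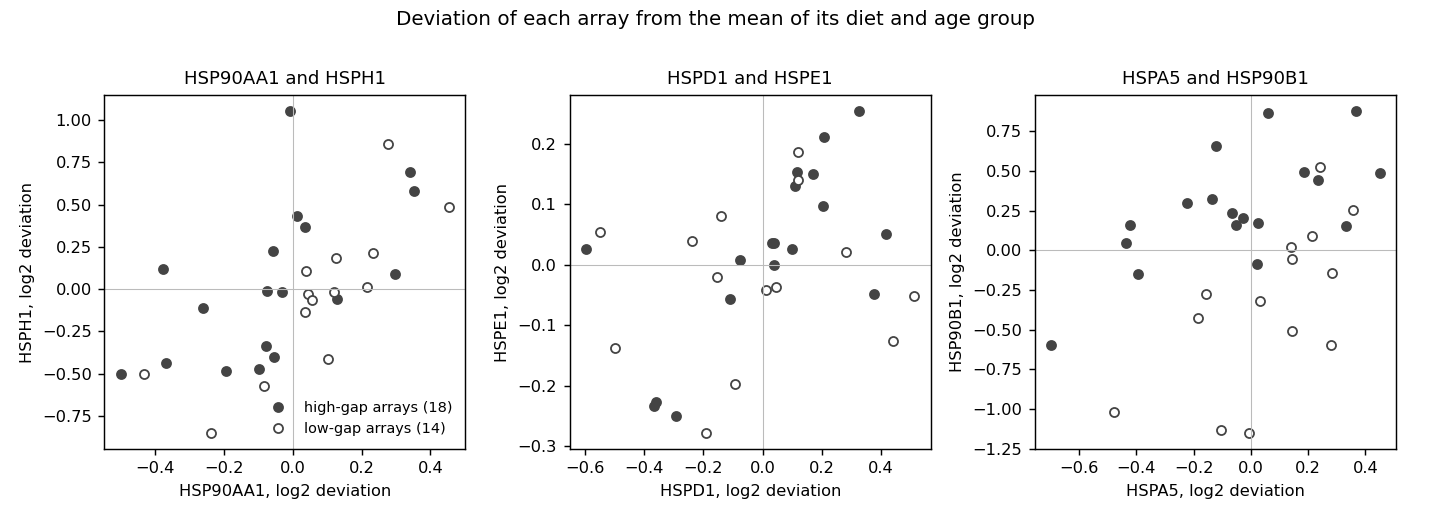
Deviation of each array's log2 signal from the mean of its diet and age group, for HSP90AA1 and HSPH1 (left), HSPD1 and HSPE1 (middle) and HSPA5 and HSP90B1 (right); filled points are the 18 high-gap and open points the 14 low-gap arrays. The left pair (r = 0.62) passed the adjusted permutation test, and the middle (0.41) and right (0.38) pairs did not.

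Maternal diet gave no call among the chaperone genes. At 35, 63 and 91 dpc, and averaged over the ages, 0 of 48 differed between the diets by limma, where 0.0391%, 0%, 0.0718% and 0% of all probe sets did. At an unadjusted p under 0.05 there were 8, 1, 3 and 8 of the 48, or 16.7%, 2.08%, 6.25% and 16.7%, beside 6.09%, 1.43%, 6.52% and 4.47% of all probe sets. The test that the diet difference is equal at the 3 ages called none of 48 (0% of all probe sets), with 1 at an unadjusted p under 0.05.

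HSPA8 was lower in the methyl arrays at every age without passing the test. At 35 dpc its control values were 13.5, 13.6, 13.6, 13.3 and 13.8 and its methyl values 12.8, 13.4, 13.3, 13.3 and 12.8, so that all 5 methyl arrays lay below the control median and 2 below the lowest control. At 63 dpc the lowest, median and highest were 13.5, 13.6 and 13.9 in control and 12.9, 13.3 and 13.8 in methyl arrays, and 4 of 6 methyl arrays lay below the lowest control. At 91 dpc 4 of 5 did. The log2 difference averaged over ages was -0.32 ± 0.077 (95% interval -0.48 to -0.16, unadjusted p = 0.00028), which ranked 5 among the 15327 probe sets and had an adjusted p of 0.84.

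HSPE1 and DNAJA1 followed by p in the averaged contrast, with -0.17 ± 0.053 and -0.29 ± 0.096 (adjusted p = 0.9987 for both). At 35 dpc alone the differences were -0.44 ± 0.14 for HSPA8, -0.30 ± 0.094 for HSPE1 and -0.45 ± 0.17 for DNAJA1 (adjusted p = 0.58, 0.58 and 0.70). In the 6 high-gap arrays of that age they were -0.68, -0.43 and -0.64, and in the 4 low-gap arrays -0.075, -0.099 and -0.17. Methyl replicates 1 and 5, both high-gap, held the lowest pair of the 5 methyl values in 21 of the 48 genes at 35 dpc. The same count over all probe sets was not made, so whether this is particular to the chaperone genes cannot be told. Differences were below 0 in 37 of 48 genes at that age (77.1%), beside 54.2% of all probe sets, with a median of -0.19 beside -0.021.

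At 63 dpc the smallest p after HSPA8 (-0.29 ± 0.13) belonged to DNAJB14 (0.32 ± 0.29) and DNAJA1 (-0.17 ± 0.16). At 91 dpc they belonged to HSPB11 (-0.39 ± 0.17, adjusted p = 0.65), DNAJB6 (-0.35 ± 0.15) and HSPE1 (-0.19 ± 0.094). In the test across ages the smallest were HSPB7, DNAJC19 and HSPE1, all with an adjusted p of 1. For HSPD1 the diet difference averaged over ages was -0.21 ± 0.11, and for HSPB7 at 35 dpc it was 0.32 ± 0.12. The 95% interval of the HSPA8 difference at 35 dpc, not adjusted for the number of tests, ran from -0.72 to -0.16.

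**Figure D5:**
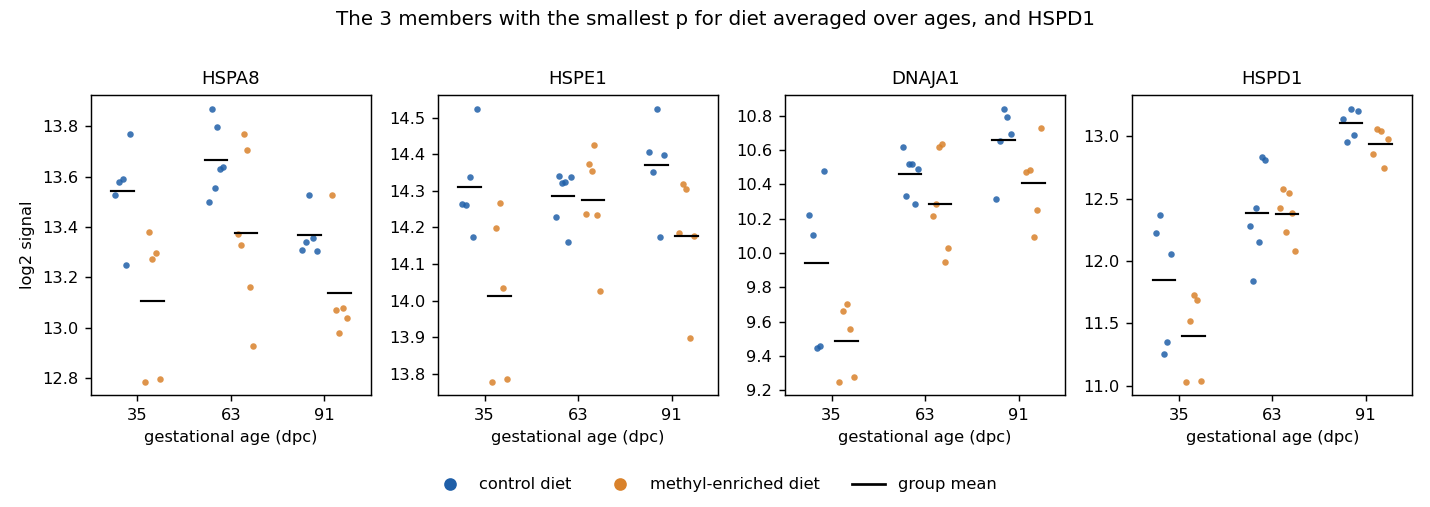
Log2 signal of HSPA8, HSPE1, DNAJA1 and HSPD1 in each array by gestational age in dpc, coloured by diet with black bars at the group means. HSPA8 reads lower in methyl than in control arrays on average at each age, with overlap at all 3 ages.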

How the data were processed

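The authors deposited log2 signals per probe set and array, which span 2.20 to 16.6, and these were used without further normalization. The submitters' processing notes name GCOS 1.1.1 without saying what it did, and how signals were normalized is not given in the sources used here. Array medians ran from 3.84 to 4.23. RNA was extracted with TRI Reagent and column cleaned, per the labels' protocols.

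Of 24123 probe sets, 124 controls were set aside and 15327 of the other 23999 were kept, which in 5 or more arrays exceeded the 40th percentile of that array (2.74 to 2.93). Of the 51 genes, 48 were kept. Gene symbols came from the array annotation, and 50 of the 51 matched the RefSeq symbol of the same gene ID (CCT6A did not). Genomic positions are not given, since the files name no build. limma 3.58.1 (R 4.3.3) fitted the 6 group means on all arrays with an intensity trend, and calls used a Benjamini-Hochberg adjusted p under 0.05 over all kept probe sets. Pair tests and plots used Python 3.11.15 with scipy 1.17.1 and matplotlib 3.10.9. The fit and the permutation test were tested on simulated data. The difference of the bioC and bioB spike-in signals, split at 1.2, was known from earlier work on these data.

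The genes, the gene lists and the tests were chosen with earlier results of these data known, so counts over them are descriptions. Genes named are up to 10 called in each direction per age comparison, the 3 smallest p per diet comparison, a fixed set of core chaperones, and up to 3 genes per other list. Genes described outside this rule (DNAJA2, DNAJA3, DNAJC5, DNAJC8, DNAJC24, HSPA14, HSPB2, the 3 untested genes and some list genes) were added after their values were seen, to account for every gene of the families. Alternatives were no trend, robust spread, no filter, a filter at the 60th percentile, array weights, quantile normalization, genes counted once each, the mean of a gene's probe sets, only the ages compared, a threshold of 0.10, the gap as a term, either set of arrays alone, and each array left out. Other marker lists not cited above were mesenchyme and vessel genes, where the mean of the 8 tested went from 8.41 to 8.22 and 8.21, and biliary genes, 3 tested, from 6.09 to 6.39 and 7.07, at 35, 63 and 91 dpc.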

Additional observations from a re-analysis of the deposited data

Results flagged for a closer look

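In 246 groups of 5 or 6 arrays (41 named genes in 6 groups), 11 had a highest or lowest array set far apart from the others by Dixon's criterion, which chance meets in about 1 of 20 groups. The values are given with no explanation. In arrays of 63 dpc, DNAJC3 read 6.17 in control replicate 1 and 6.28 in methyl replicate 6, below 6.55 to 6.71 and 6.55 to 6.68 in the others of each group. DNAJC19 read 9.33 in methyl replicate 6 against 9.70 to 9.79, HSPB6 read 4.12 in control replicate 5 against 4.78 to 5.11, and HSPA12A read 3.66 in control replicate 1 against 2.48 to 2.62. At 35 dpc, HSPA4 read 8.15 in methyl replicate 3 against 7.59 to 7.70.

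At 91 dpc, HSPA8 had a single high array in each diet. It read 13.5 in control replicate 3 (others 13.3 to 13.4) and 13.5 in methyl replicate 1 (others 13.0 to 13.1). HSPBP1 read 6.22 in control replicate 1 against 5.58 to 5.76. In methyl replicate 4, DNAJB11 read 7.63 against 7.83 to 7.91, and HSPB7 read 2.91 against 2.58 to 2.66, near background. No gene had a diet difference that changed between ages by the test across ages, and none had diet groups fully apart in opposite directions at 2 ages.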

How the results depend on the processing

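For the named genes, 1474 values under an alternative kept their side of the threshold, 23 lost the call, 13 gained it and 1 reversed. The reversal was HSPA8 between 63 and 91 dpc, at 0.055 in the mean of its probe sets. A change of sign counted as a reversal only where a value was called, so uncalled differences near 0 could change sign. DNAJB9 between 35 and 63 dpc, for example, ran from -0.014 to 0.12 with each array left out in turn. The counts of calls stayed within 1.5 times of those reported under each alternative except in the low-gap arrays alone, which are fewer: there 9 genes rose and 9 fell between 35 and 63 dpc, and 9 rose between 63 and 91 dpc. With each array left out in turn, the counts were 20 to 23 higher and 15 lower for the first interval, 14 higher and 16 to 17 lower for the second, and 19 to 24 higher and 16 to 17 lower from 35 to 91 dpc, and the diet comparisons stayed at 0. Quantile normalization gave 20 higher and 15 lower, then 13 higher and 18 lower, and moved the median of all probe sets from 35 to 91 dpc from 0.0049 to -0.15. Counting 1 probe set per gene lowered the share of higher calls among all calls from 50.5% to 36.1% in the second interval. Of the pairs, HSP90AA1 and HSPH1 lost the call in the low-gap arrays (r = 0.81, adjusted p = 0.14) and with all probe sets (r = 0.35), HSPD1 and HSPE1 gained it without the 2 farthest arrays (r = 0.55, adjusted p = 0.018), and HSPA5 and HSP90B1 gained it with all probe sets (r = 0.62, adjusted p = 0.0049). The cause was not tested. No paired analysis was possible because replicate numbers only name the samples. Levels near the 40th percentile limit what can be said of HSPA12A, HSPB7 and DNAJA4 at 91 dpc.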
